A study of Caenorhabditis elegans with 12 samples.

Results

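The genes described here encode nuclear hormone receptors of the nematode *Caenorhabditis elegans* and were taken by name, with earlier results of these data known. Sequence names in the deposited expression table were matched to WormBase gene symbols of the WBcel235 annotation, and every gene whose symbol starts with nhr- and a number was taken. This gave 163 members among 12894 genes listed, all of them protein-coding. The annotation holds 269 such genes, so 60.6% of them were listed, against 61.7% of all protein-coding genes, and the other 106 were not analysed here. Chromosome V carried 101 of the 163 members, chromosome IV 24, chromosome X 16, chromosome II 9, chromosome I 8 and chromosome III 5.

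Nuclear hormone receptors are transcription factors that bind DNA through a zinc finger domain, and many are switched by small fat-soluble molecules such as steroids and fatty acids, which bind a second domain. In *C. elegans* the family is greatly expanded, mostly from an ancestor like the vertebrate receptor HNF4, and for most members neither a ligand nor a role is known. Those with a known role act in moulting, in the use of fat during fasting, in the propionate and methionine pathways and in the response to foreign compounds, and the relative DAF-12 ties steroid hormones to the choice between growth and arrest in larvae.

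Messenger RNA was sequenced from whole early adults of the wild-type strain N2 (Bristol) in 12 libraries, 3 per group, which the design calls biological replicates (A, B and C). Starved *daf-2* RNAi animals had spent 8 days in L1 arrest, the halt that hatchlings without food enter, and then recovered for about 68 h on HT115 bacteria carrying an RNA interference vector against *daf-2*, the insulin/IGF receptor gene. Starved EV animals had the same arrest and recovery on bacteria with the empty vector (EV). Control *daf-2* RNAi and control EV animals had spent 1 day in L1 arrest and about 52 h on *daf-2* RNAi or EV bacteria. All groups recovered at 20 °C until eggs appeared, so every group had been without food for at least 1 day, and the effect of a longer arrest cannot be told apart from that of a longer recovery. Each library came from many pooled whole animals, in which fewer cells of a type and less RNA per cell cannot be told apart.

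The libraries held 21150912 to 30037731 reads over the listed genes. The targeted gene was not lower with the RNAi label. In starved *daf-2* RNAi libraries *daf-2* averaged 369 ± 306 CPM (read counts scaled by the authors with 1 factor per library, SD, n = 3), against 149 ± 45.6 CPM in starved EV libraries. Its mean was 212 ± 99.8 CPM in control *daf-2* RNAi libraries, against 145 ± 49 CPM in control EV libraries. Each library labelled *daf-2* RNAi was above the EV library of the same letter and arrest. These values do not show a knockdown, and every RNAi direction below rests on the label. Markers of germline, intestine, hypodermis, pharynx, body muscle and neurons were present in all groups, and 1 hypodermis marker was at 0 reads in at least 1 library.

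Receptor genes were low in whole animals. Their mean level over the 12 libraries had a median of 4.15 CPM, with quartiles of 2.33 and 8.97 CPM and a range of 0.618 to 135 CPM, while all listed genes had a median of 17.5 CPM. Of the 163 members, 92 averaged under 5 CPM, 65 averaged 5 to 50 CPM and 6 averaged 50 CPM or more. Every member had at least 1 read in every library, and all 163 passed the requirement of 1 CPM in 3 libraries. Reads cannot be assigned by strand in these libraries, and exons of 47 members overlap those of another gene, which is protein-coding for 34 of them. Members that are close copies of each other may share reads.

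Per kilobase of exon, the highest receptor gene was *nhr-114*, which acts in methionine metabolism and protects germ cells on poor diets, at a mean of 85.5 CPM per kb over the 12 libraries. Next came *nhr-49*, a main regulator of fat use in fasting, at 63.2 CPM per kb. The pathogen sensor *nhr-86* followed at 38.9 CPM per kb, the propionate regulator *nhr-68* at 36.1 CPM per kb and the moulting regulator *nhr-23* at 28.2 CPM per kb. The order of the first pair was not the same in all groups: in starved *daf-2* RNAi animals *nhr-114* averaged 62.3 and *nhr-49* 63.6 CPM per kb, while in starved EV animals *nhr-114* averaged 88.7 and *nhr-49* 61.8 CPM per kb. At the low end stood *nhr-270* at 0.476, *nhr-225* at 0.491, *nhr-141* at 0.594, *nhr-99* at 0.596 and *nhr-231* at 0.606 CPM per kb.

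Among the 71 members with a mean of at least 5 CPM, *nhr-49* varied least, with 127 to 147 CPM over the 12 libraries and a coefficient of variation of 4.34%. The most variable were *nhr-88*, with 3.3 to 28.5 CPM and a coefficient of 70.1%, and *nhr-25*, with 2.29 to 20.7 CPM and 63.5%. They differed in kind. For *nhr-88* the A library was the highest and the C library the lowest in each of the 4 groups, with 28.5, 9.06 and 5.35 CPM in starved EV libraries and 19.9, 8.15 and 3.3 CPM in control EV libraries, whereas *nhr-25* was high in all 3 starved EV libraries.

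After long arrest and recovery on EV, receptor genes were more often higher than lower relative to control EV animals. A gene was called when limma's p, adjusted by the Benjamini-Hochberg method over 12830 tested genes, was under 0.05, and differences are of mean log2(CPM + 1), a scale that understates the change of genes near or below 1 CPM. In starved EV against control EV, 28 of 163 members were called higher (17.2%) and 0 lower, against 17.7% of all tested genes called in either direction, 11.5% higher and 6.12% lower. The median difference of the members was 0.35 and that of all genes 0.03. The differences were positive for 153 members (93.9%), against 51.9% of all genes, and all 3 starved EV libraries lay above all 3 control EV libraries for 86 members (52.8%), against 23.4% of all genes. The reverse held for 3 members, *nhr-12*, *nhr-114* and *nhr-181* (1.84%, against 16.7% of all genes).

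The level of a gene matters to this reading, since low genes in general stood higher in starved EV libraries. Among genes averaging under 5 CPM, 20 of 92 members were called higher (21.7%), against 20.1% of the 3995 tested genes at that level. At 5 to 50 CPM, 8 of 65 members were called higher (12.3%), against 12.6% of 4655 genes, so the share of calls was close to that of other genes of like level. The 6 members at 50 CPM or more had 0 calls, against 2.22% of 4180 genes higher and 13% lower. Groups without overlap in the higher direction made up 57.6% of the members under 5 CPM, 49.2% at 5 to 50 CPM and 1 of 6 above that, against 37.3, 27.8 and 5.31% of all genes at these levels. The medians lay apart too, at 0.42 for members and 0.28 for all genes under 5 CPM, and at 0.30 for members and 0.12 for all genes at 5 to 50 CPM. The plot of differences by level shows both.

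**Figure D1:**
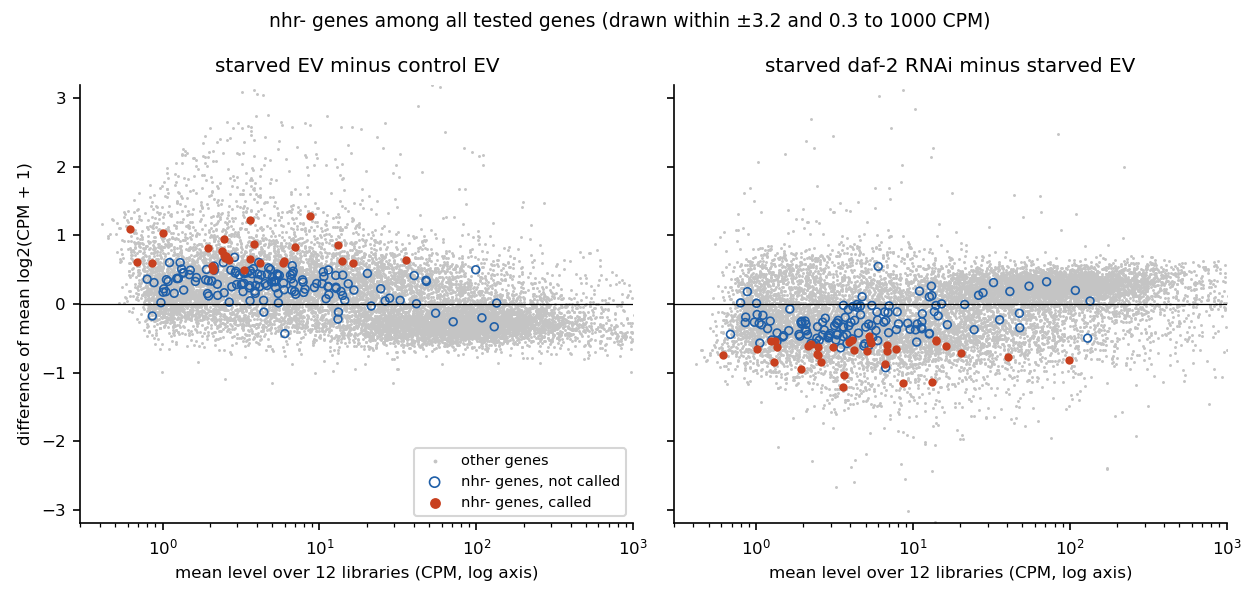
Difference of mean log2(CPM + 1) (vertical) against the mean level over 12 libraries (horizontal, log axis) for starved EV minus control EV (left) and starved *daf-2* RNAi minus starved EV (right). Grey points are other tested genes, open circles nhr- genes not called and filled circles nhr- genes called; 124 genes on the left and 108 on the right, none of them nhr- genes, lie outside the frame. The 28 called members on the left all lie above 0 and the 35 on the right all below 0, inside the cloud of other genes of the same level.

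The number of calls rested on single libraries, for members and for all genes alike. Without starved EV A, starved EV C, control EV A, control EV B or control EV C, the members called higher numbered 8, 7, 18, 9 and 7, while the shares of all genes called were 6.85, 6.25, 16.4, 6.99 and 5.67%. Calls in all 12 fits that left out 1 library were kept by 5 of the 28 members: *nhr-25*, *nhr-63*, *nhr-91*, *nhr-183* and *nhr-270*. With quantile normalization, which gives all libraries the same distribution of values, 6 members were called higher and 3 lower, together 9 of 163, against 11.6% of all genes called, the median of the members was 0.04 and that of all genes -0.07.

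**Figure D2:**
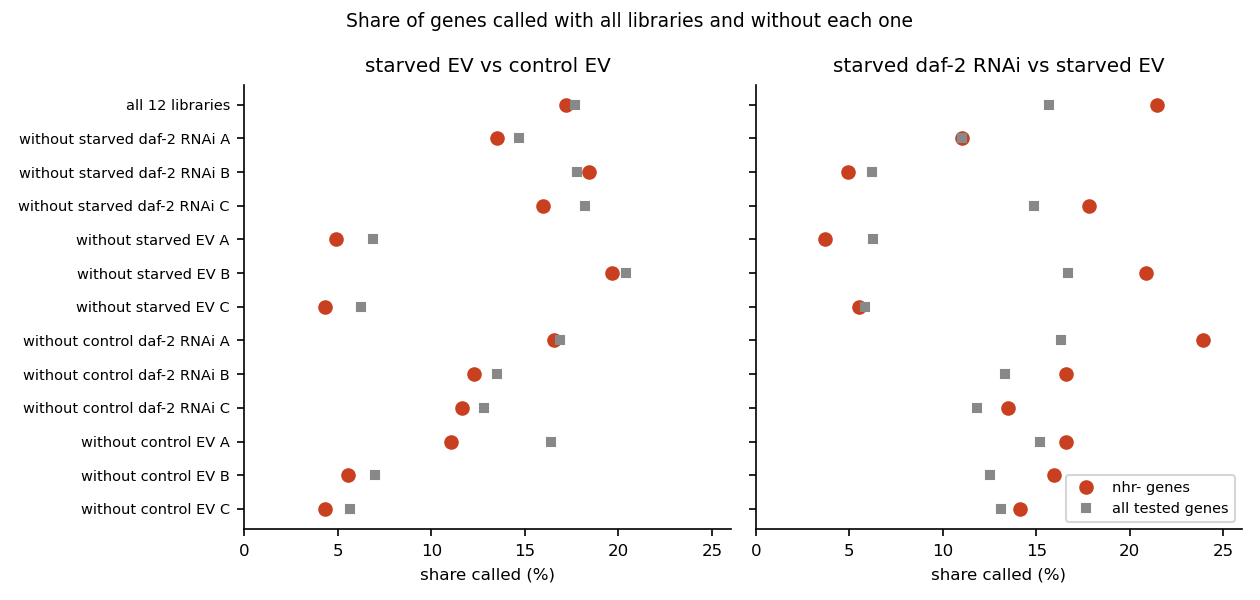
Share of nhr- genes (circles) and of all tested genes (squares) called by limma, in percent (horizontal), with all 12 libraries and without each one (rows), for starved EV against control EV (left) and starved *daf-2* RNAi against starved EV (right). Both shares depend on single libraries: on the right, without starved EV A, 6 of 163 members and 6.24% of all genes were called.

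In starved animals, the *daf-2* RNAi label went with lower receptor levels. In starved *daf-2* RNAi against starved EV, 35 of 163 members were called lower (21.5%) and 0 higher, against 15.7% of all tested genes called in either direction, 11.9% lower and 3.8% higher. The median difference was -0.37 for members and 0.00 for all genes, and 145 members had a negative one. All 3 starved *daf-2* RNAi libraries lay below all 3 starved EV libraries for 87 members (53.4%, against 21.8% of all genes) and above them for 2, *nhr-12* and *nhr-71* (1.23%, against 13.6%). By level, 19 of 92 members under 5 CPM were called lower (20.7%, against 14.8% of genes at that level), 15 of 65 at 5 to 50 CPM (23.1%, against 15.9%) and 1 of 6 at 50 CPM or more, *nhr-97* (against 4.74%). Groups without overlap in the lower direction made up 56.5% of the members under 5 CPM, 50.8% at 5 to 50 CPM and 2 of 6 above that, against 30, 27.3 and 7.94% of all genes. These shares were not tested against each other. The comparison shares its 3 starved EV libraries with the one before, so opposite signs in the 2 comparisons are not independent of each other.

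Leaving out single libraries again moved the count. Without starved *daf-2* RNAi A, starved *daf-2* RNAi B, starved EV A, starved EV C, control *daf-2* RNAi C or control EV C, the members called lower numbered 18, 8, 6, 9, 22 and 23, with 11, 6.22, 6.24, 5.82, 11.8 and 13.1% of all genes called. The calls kept in all 12 such fits were those of *nhr-156*, *nhr-137*, *nhr-3*, *nhr-44* and *nhr-91*. With the replicate letter as a block, used here because same-lettered libraries of these groups deviated together, 72 members were called lower and 5 higher (*nhr-23*, *nhr-66*, *nhr-71*, *nhr-86* and *nhr-181*), against 47.9% of all genes called. With quantile normalization 13 were called lower and 2 higher (*nhr-12* and *nhr-181*), together 15 of 163, against 14.2% of all genes called, and the median of the members was -0.16, against 0.05 for all genes.

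Summed over all 163 members, receptor RNA came to 1627, 1591 and 1604 CPM in starved *daf-2* RNAi libraries, against 2094, 1863 and 1914 CPM in starved EV libraries. It came to 1445, 1620 and 1618 CPM in control *daf-2* RNAi libraries, against 1644, 1753 and 1605 CPM in control EV libraries. The 3 starved EV sums were above all others, and the other 9 overlapped between groups.

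After short arrest the *daf-2* RNAi label went with few calls. In control *daf-2* RNAi against control EV, 1 member, *nhr-156*, was called lower (0.613%) and 0 higher, against 1.39% of all genes called, 0.725% lower and 0.663% higher. The median difference of the members was -0.11 and 118 of 163 were negative. The RNAi libraries lay below all EV libraries for 27 members (16.6%, against 9.13% of all genes) and above them for 1 (0.613%, against 7.01%). With the replicate letter as a block, 4 members were called lower (*nhr-156*, *nhr-137*, *nhr-3* and *nhr-114*), against 5.81% of all genes called. In starved *daf-2* RNAi against control *daf-2* RNAi limma called 0 members, against 0.701% of all genes (0.663% higher and 0.039% lower), with 10 members at an unadjusted p under 0.05 (6.13%, against 10.1% of all genes), 0 called by edgeR and 1 by DESeq2 (*nhr-232*; 2.9% of all genes). The median difference was 0.11, and the groups did not overlap for 26 members in the higher direction (16%, against 9.08% of all genes) and for 2 in the lower one (against 5.73%). The difference between the 2 RNAi comparisons, tested as an interaction, was called by limma for 0 members and 0 of all 12830 genes. At an unadjusted p under 0.05 stood 9 members (5.52%, against 7.11% of all genes). Among the members edgeR, DESeq2 and limma with the block each called 0, against 0, 4 and 63 of all genes, so no RNAi difference among the members was shown to depend on arrest length.

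Receptors of moulting and larval timing included *nhr-25* and *nhr-91*, which had large differences on the log2(CPM + 1) scale in both comparisons. Of the 6 genes of this list, 3 were called higher in starved EV than in control EV (*nhr-25*, *nhr-41* and *nhr-91*), with a median difference of 0.72 over the list, and 3 were called lower in starved *daf-2* RNAi than in starved EV (*nhr-25*, *nhr-67* and *nhr-91*), with a median of -0.67. In both comparisons 0 were called in the other direction. Of all tested genes, 11.5% were called higher in starved EV and 11.9% lower in starved *daf-2* RNAi.

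The ortholog of fly Ftz-F1 and vertebrate SF-1, *nhr-25*, is needed for moulting and for the epidermis and gonad (WBcel235 chromosome X, 13008493 to 13013964). It was at 8.03, 5.64 and 7.29 CPM in starved *daf-2* RNAi libraries, against 17.6, 12.4 and 20.7 CPM in starved EV libraries. It was at 5.84, 2.29 and 5.2 CPM in control *daf-2* RNAi libraries, against 7.04, 4.88 and 6.93 CPM in control EV libraries. The starved EV libraries were above all 9 others, and the other groups overlapped in part. On EV, *nhr-25* was higher in starved than in control animals by 1.28 ± 0.28 (log2 difference, SE; adjusted p = 0.0103), a ratio of mean CPM of 2.69. In starved animals it was lower on *daf-2* RNAi than on EV, at -1.15 ± 0.28 (adjusted p = 0.0182), and this call was lost without B of starved *daf-2* RNAi or A or C of starved EV, with an adjusted p of up to 0.0756.

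A relative of fly DHR4, *nhr-91* (chromosome X, 15309369 to 15314899), had the same order. It was at 3.63, 1.78 and 3.34 CPM in starved *daf-2* RNAi libraries, against 8.17, 5.84 and 6.58 CPM in starved EV libraries. Controls were at 2.35, 2.43 and 2.21 CPM on *daf-2* RNAi, against 2.53, 1.86 and 2.74 CPM on EV. Only the starved EV group stood apart from the other 3 groups, which overlapped. The differences were 1.22 ± 0.21 for starved EV against control EV (adjusted p = 0.00277) and -1.03 ± 0.21 for starved *daf-2* RNAi against starved EV (adjusted p = 0.00842).

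The tailless ortholog *nhr-67*, which acts in the anchor cell and in neurons, was at 1.18, 0.871 and 0.608 CPM in starved *daf-2* RNAi libraries, against 2.59, 1.61 and 3.09 CPM in starved EV libraries and 1.54, 0.951 and 1.21 CPM in control EV libraries. Its groups did not overlap in either comparison. It was lower in starved *daf-2* RNAi than in starved EV animals by a log2 difference of -0.85 ± 0.20 (adjusted p = 0.0179), a call lost without B of starved *daf-2* RNAi or A or C of starved EV (adjusted p up to 0.0764). For starved EV against control EV the difference was 0.60 ± 0.20 and was not called (adjusted p = 0.0564).

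The DHR78 ortholog *nhr-41* was at 14.7, 8.55 and 7.99 CPM in starved EV libraries, against 6.39, 6 and 3.63 CPM in control EV libraries, a difference of 0.83 ± 0.25 (adjusted p = 0.0413). The groups did not overlap, but the call needed A and C of starved EV, C of control *daf-2* RNAi and B and C of control EV, and was lost without any of these 5 (adjusted p up to 0.153). The E75 ortholog *nhr-85*, which shares 835 exon bases with *npr-14*, was at 5.4, 2.35 and 3.01 CPM in starved EV libraries, against 2.23, 1.94 and 1.58 CPM in control EV libraries, and was not called (0.60 ± 0.25, adjusted p = 0.106).

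The ROR ortholog *nhr-23*, which drives the moulting cycle in larvae, had differences of the opposite sign, and neither was called. It was at 75.2, 83.2 and 65.5 CPM in starved *daf-2* RNAi libraries, against 70.7, 64.4 and 45.5 CPM in starved EV libraries, and at 84, 79.1 and 70.7 CPM in control *daf-2* RNAi libraries, against 82.7, 77.6 and 56 CPM in control EV libraries. Its groups overlapped in all these comparisons. The difference of starved EV against control EV was -0.26 ± 0.18 (adjusted p = 0.307), and that of starved *daf-2* RNAi against starved EV was 0.32 ± 0.18 (adjusted p = 0.21, but 0.0150 with the replicate letter as a block).

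Genes that act downstream of NHR-23 in the moult were mixed. Of 6 moulting effectors, 4 were called higher in starved EV than in control EV: the protease inhibitor gene *mlt-11* (2.43), *mlt-8* (2.36), *acn-1* (1.99), which encodes a protein like angiotensin-converting enzyme, and the cuticle component gene *noah-1* (1.92). The other members of this list, *mlt-10* (0.63) and the protease gene *nas-37* (-0.27, with all starved EV libraries below all control EV libraries), were not called (adjusted p = 0.125 and 0.108). In starved *daf-2* RNAi against starved EV, *mlt-8* (-1.42) and *acn-1* (-1.37) were called lower. Without overlap but not called there were *noah-1* (-1.66), *mlt-11* (-1.63) and *nas-37* (-0.32), with adjusted p = 0.066, 0.102 and 0.0763. Of all tested genes, 11.5% were called higher in the first comparison and 11.9% lower in the second. In starved against control *daf-2* RNAi, *acn-1* was called higher (1.12, adjusted p = 0.0473), a call kept in 2 of 12 fits that left out a library. The *mlt-11* call was lost without A or C of starved EV or B or C of control EV (adjusted p up to 0.0981), that of *noah-1* also without C of control *daf-2* RNAi (up to 0.137), and the second one of *mlt-8* without B of starved *daf-2* RNAi or A or C of starved EV (up to 0.0755). The summed level of 7 moulting cycle genes was 61.4 to 91.1 CPM in starved *daf-2* RNAi libraries, 140 to 191 CPM in starved EV libraries, 33.3 to 66.4 CPM in control *daf-2* RNAi libraries and 46.6 to 91.4 CPM in control EV libraries, and none of the 7 was at 0. That of 7 germline genes, also none at 0, was 1809 to 2102 CPM in starved *daf-2* RNAi libraries, 1119 to 1575 CPM in starved EV libraries, 1992 to 2502 CPM in control *daf-2* RNAi libraries and 2063 to 2238 CPM in control EV libraries. In starved EV libraries the moulting sum was above that of every other library and the germline sum below it. The sum of 5 hypodermis genes was 687 to 838 CPM in starved *daf-2* RNAi libraries, 1272 to 1396 CPM in starved EV libraries, 1054 to 1985 CPM in control *daf-2* RNAi libraries and 1596 to 2319 CPM in control EV libraries. The sum of 5 intestine genes was 566 to 808 CPM in starved *daf-2* RNAi libraries, 895 to 1322 CPM in starved EV libraries, 752 to 876 CPM in control *daf-2* RNAi libraries and 872 to 1209 CPM in control EV libraries. That of 6 oocyte and eggshell genes was 7667 to 9219 CPM in starved *daf-2* RNAi libraries, 4569 to 6560 CPM in starved EV libraries, 7321 to 9546 CPM in control *daf-2* RNAi libraries and 5644 to 7490 CPM in control EV libraries. With the RNAi label in starved animals, 4 germline genes, 4 oocyte and eggshell genes and 1 intestine gene were called higher (3.8% of all tested genes). Called lower (11.9%) were 3 moulting cycle, 3 hypodermis, 2 pharynx and 2 intestine genes and 1 embryo gene. In starved EV against control EV, 5 moulting cycle, 2 hypodermis, 2 pharynx, 1 intestine and 1 neuron genes were called higher (11.5%) and 3 germline genes lower (6.12%). In starved against control *daf-2* RNAi, 3 moulting cycle, 1 hypodermis and 1 pharynx genes were called higher (0.663%). The part of these cell types, of the moulting cycle or of developmental stage in the receptor differences was not tested.

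**Figure D3:**
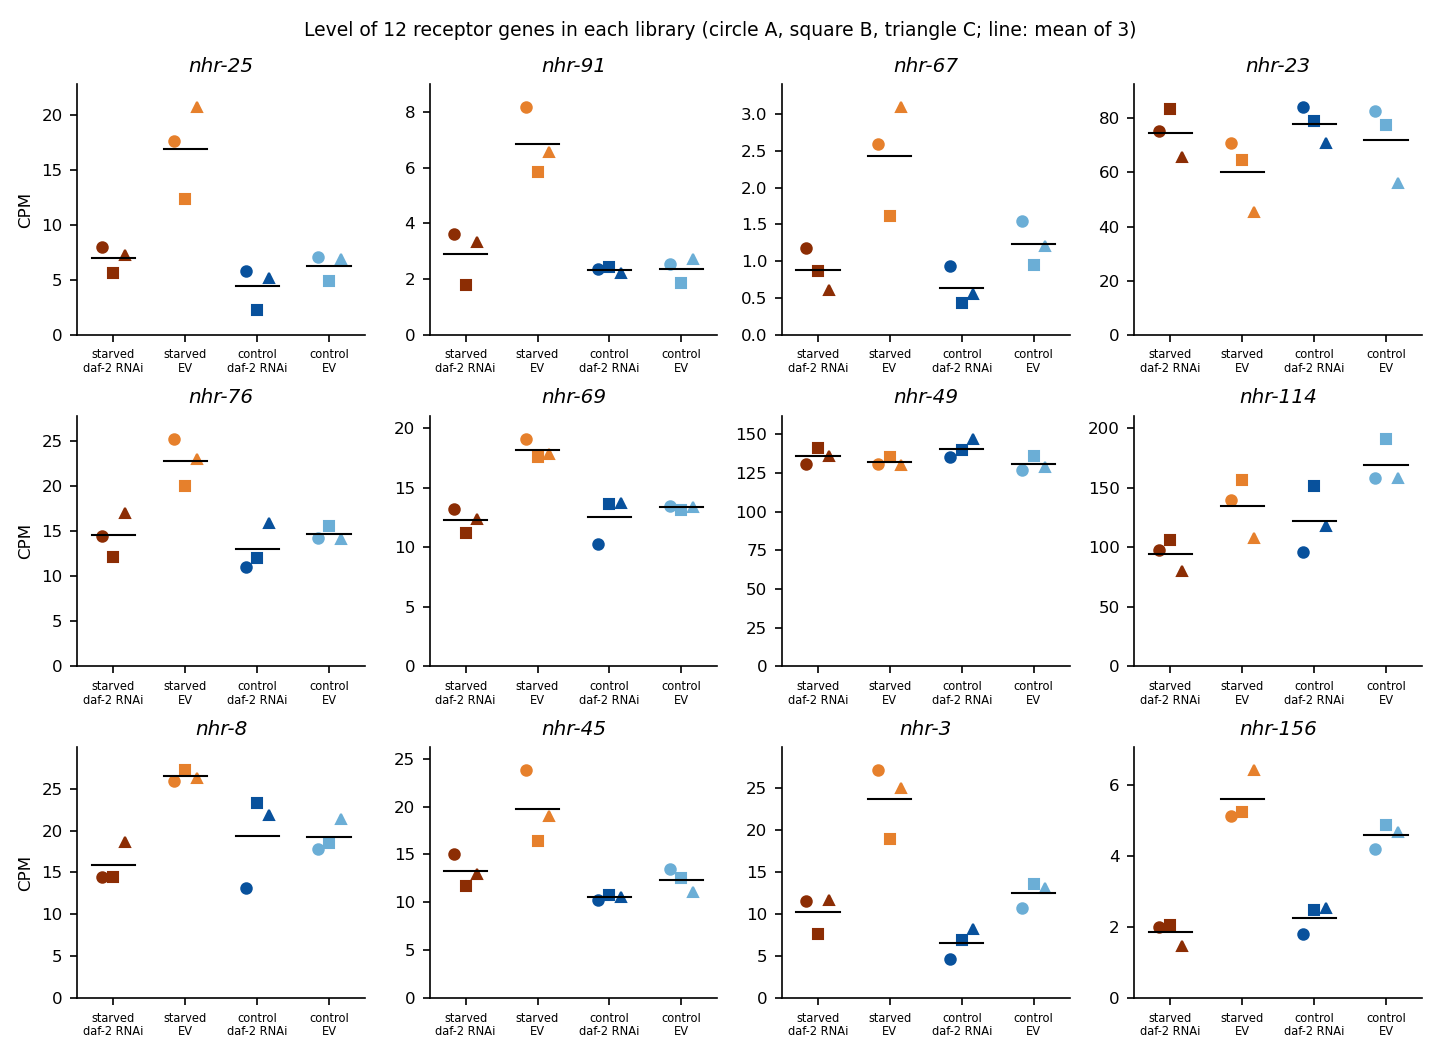
Level in CPM (vertical, from 0) of 12 receptor genes in each of the 12 libraries, by group (horizontal); circles, squares and triangles are replicates A, B and C, and lines are means of 3. For *nhr-25*, *nhr-91*, *nhr-67*, *nhr-76*, *nhr-69*, *nhr-8*, *nhr-45*, *nhr-3* and *nhr-156* the 3 starved EV libraries lie above the other 9, for *nhr-67* and *nhr-156* narrowly. The gene *nhr-49* stays between 127 and 147 CPM.

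Receptors of fat and fasting metabolism were mixed. Of 8 genes, 1 was called higher in starved EV than in control EV (*nhr-76*) and 3 lower in starved *daf-2* RNAi than in starved EV (*nhr-64*, *nhr-69* and *nhr-76*), with 0 called in the other direction. The medians of the list were 0.25 and -0.23, and the shares of all tested genes called in these directions were 11.5 and 11.9%.

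The regulator of fasting fat use, *nhr-49*, was at 131, 141 and 136 CPM in starved *daf-2* RNAi libraries, against 131, 135 and 130 CPM in starved EV libraries. It was at 135, 140 and 147 CPM in control *daf-2* RNAi libraries, against 127, 136 and 129 CPM in control EV libraries. All groups overlapped, and its log2 differences of 0.01 with arrest length on EV, 0.04 with the RNAi label in starved animals and 0.11 with it in control animals, each ± 0.09 (SE), were not called. Its partners *nhr-66* and *nhr-13* were not called in any of these comparisons either, with differences of -0.20 to 0.20 and of -0.12 to 0.12, although *nhr-66* had an adjusted p of 0.0458 in starved *daf-2* RNAi against starved EV with the replicate letter as a block. The dietary restriction receptor *nhr-62* differed by 0.27 ± 0.24 in starved EV against control EV and was not called.

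The gene for the receptor through which serotonin signals fat loss, *nhr-76*, was at 14.5, 12.2 and 17.1 CPM in starved *daf-2* RNAi libraries, against 25.3, 20.1 and 23.1 CPM in starved EV libraries and 14.3, 15.6 and 14.2 CPM in control EV libraries. The starved EV libraries were above all others. The differences were 0.60 ± 0.17 for starved EV against control EV (adjusted p = 0.0309) and -0.62 ± 0.17 for starved *daf-2* RNAi against starved EV (adjusted p = 0.0289). Of these calls, the first was lost without A or C of starved EV or any control EV library (adjusted p up to 0.0993), and the second without A or B of starved *daf-2* RNAi or A or C of starved EV (up to 0.108).

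The HNF4-like gene *nhr-69* was at 13.2, 11.2 and 12.4 CPM in starved *daf-2* RNAi libraries, against 19.1, 17.6 and 17.8 CPM in starved EV libraries, with no overlap (-0.53 ± 0.14, adjusted p = 0.0255; lost without B of starved *daf-2* RNAi or A or C of starved EV, at up to 0.0896). For *nhr-64*, also HNF4-like, the values were 4.7, 4.02 and 4.3 CPM against 7.35, 6.39 and 5.58 CPM (-0.47 ± 0.14, adjusted p = 0.0442), and the call was kept in 1 of 12 fits that left out a library, the one without A of control *daf-2* RNAi (otherwise up to 0.135). The desaturase regulator *nhr-80* was at 11.4, 10.8 and 13.4 CPM in starved *daf-2* RNAi libraries, against 18.1, 14.6 and 16.5 CPM in starved EV libraries. It did not overlap either, but was not called (-0.44 ± 0.15, adjusted p = 0.062; 0.0202 with the block).

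Target genes of NHR-49 moved in both directions beside the even level of *nhr-49*. Of 10 tested, 2 were called higher in starved EV than in control EV: the palmitoyl desaturase gene *fat-5* (1.02) and the flavin monooxygenase gene *fmo-2* (0.46). For *fmo-2* only starved EV libraries reached 1 CPM (1.5, 1.29 and 1.12 CPM). It thus met the requirement of 1 CPM in 3 libraries through that group alone, and its differences are not independent of that. In starved *daf-2* RNAi against starved EV, *fat-5* (1.08), *hacd-1* (0.84) and *ech-1.1* (0.61), which serve fatty acid breakdown or desaturation, were called higher. The carnitine palmitoyltransferase gene *cpt-5* (-0.81) and *fmo-2* (-0.63) were called lower. Of all tested genes, 11.5% were called higher in starved EV, and 3.8% higher and 11.9% lower in starved *daf-2* RNAi. Called in all 3 of these comparisons, *fat-5* was at 130, 120 and 188 CPM in starved *daf-2* RNAi libraries, against 59.7, 59.2 and 85.4 CPM in starved EV libraries, and at 77.7, 107 and 132 CPM in control *daf-2* RNAi libraries, against 24.5, 26.5 and 53 CPM in control EV libraries. Neither RNAi comparison overlapped for *fat-5*, and its difference in the controls was 1.63 (adjusted p = 0.014). The first *fat-5* call was lost without A or C of starved EV or A or B of control EV (adjusted p up to 0.11), the second without B or C of starved *daf-2* RNAi or A or B of starved EV (0.0815), and the third without B or C of control *daf-2* RNAi or A or B of control EV (0.0883). The call of *cpt-5* was kept without any single library and the lower one of *fmo-2* without all but A of starved EV (0.0599). The calls of *hacd-1*, *fmo-2* in starved EV and *ech-1.1* were kept in 6, 3 and 2 of 12 such fits, with adjusted p up to 0.116, 0.135 and 0.132 in the others.

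None of the 3 receptors of the vitamin B12, propionate and methionine pathways was called. Those that turn on the propionate shunt, *nhr-10* and *nhr-68*, were lower in all 3 starved *daf-2* RNAi than in all 3 starved EV libraries, *nhr-10* at 22, 22.8 and 21.7 CPM against 31.4, 26.6 and 29.4 CPM, and *nhr-68* at 44, 43 and 46.8 CPM against 55.7, 52.1 and 63.7 CPM. Their differences were -0.38 ± 0.12 for *nhr-10* (adjusted p = 0.0521; 0.0128 with the block) and -0.35 ± 0.14 for *nhr-68* (adjusted p = 0.106; 0.0142 with the block).

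The genes of the propionate shunt itself were more often called. Of 5, 4 were called lower in starved *daf-2* RNAi than in starved EV: *hphd-1* (-1.04), *hach-1* (-0.84), *ech-6* (-0.83) and *acdh-1* (-0.65), and 0 were called in starved EV against control EV. Of all tested genes, 11.9% were called lower in the first of these comparisons and 17.7% in either direction in the second. The hydroxyacid dehydrogenase gene *hphd-1* was at 399, 391 and 326 CPM in starved *daf-2* RNAi libraries, against 793, 782 and 709 CPM in starved EV libraries, and at 357, 408 and 438 CPM in control *daf-2* RNAi libraries, against 633, 644 and 618 CPM in control EV libraries. Neither pair of groups overlapped. It was called in the controls too (-0.66, adjusted p = 0.025), a call lost without any of the 6 control libraries (up to 0.133), while that of *acdh-1* in starved animals was lost without B of starved *daf-2* RNAi or A of starved EV (up to 0.0559).

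The gene *nhr-114*, highest per kb over all libraries, was 1 of 3 members with all starved EV libraries below all control EV libraries. It averaged 94.7 ± 13.3 CPM in starved *daf-2* RNAi libraries, against 135 ± 24.5 CPM in starved EV libraries, and 122 ± 27.4 CPM in control *daf-2* RNAi libraries, against 169 ± 19.1 CPM in control EV libraries (SD, n = 3 each). None of these 3 pairs of groups overlapped. The differences were -0.33 ± 0.18 with arrest length on EV, -0.50 ± 0.18 with the RNAi label in starved animals and -0.49 ± 0.18 with it in control animals, and none was called by limma (adjusted p = 0.2, 0.0779 and 0.371), whereas both RNAi differences were with the block (adjusted p = 0.00466 in starved and 0.0240 in control animals).

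Of 6 receptors that respond to foreign compounds, low oxygen, iron or pathogens, 1 was called higher in starved EV than in control EV (*nhr-45*) and 2 lower in starved *daf-2* RNAi than in starved EV (*nhr-8* and *nhr-45*), with list medians of 0.46 and -0.55. The shares of all tested genes called in these directions were 11.5 and 11.9%. The xenobiotic and sterol receptor gene *nhr-8* was at 14.5, 14.5 and 18.6 CPM in starved *daf-2* RNAi libraries, against 25.9, 27.2 and 26.3 CPM in starved EV libraries (-0.72 ± 0.19, adjusted p = 0.0286), without overlap. Without A or B of starved *daf-2* RNAi or any starved EV library it was not called (adjusted p up to 0.0938). For *nhr-45* the values were 15, 11.7 and 13 CPM in starved *daf-2* RNAi libraries, against 23.8, 16.4 and 19 CPM in starved EV libraries and 13.5, 12.5 and 11.1 CPM in control EV libraries.

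The starved EV group of *nhr-45* was again above all the others. Its differences were 0.62 ± 0.16 for starved EV against control EV (adjusted p = 0.0222; lost without A or C of starved EV or B or C of control EV, at up to 0.0873) and -0.54 ± 0.16 for starved *daf-2* RNAi against starved EV (adjusted p = 0.0398; lost without B or C of starved *daf-2* RNAi, A or C of starved EV, B or C of control *daf-2* RNAi or B of control EV, at up to 0.135). The iron and pathogen receptor *nhr-14* (-0.55) and *nhr-176* (-0.61), which acts on the drug thiabendazole, were lower in all 3 starved *daf-2* RNAi than in all 3 starved EV libraries but not called (adjusted p = 0.0651 and 0.0582; 0.0201 and 0.0175 with the block). The hypoxia-responsive gene *nhr-57* (-0.24) and *nhr-86* (0.26) were not called, and *nhr-86* was with the block (adjusted p = 0.0417).

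Receptors with an ortholog outside nematodes cut across these lists. Of 9 measured, 3 were called higher in starved EV than in control EV (*nhr-25*, *nhr-41* and *nhr-91*) and 4 lower in starved *daf-2* RNAi than in starved EV (*nhr-8*, *nhr-25*, *nhr-67* and *nhr-91*), with medians of 0.60 and -0.50. The NR4A ortholog *nhr-6*, needed for the spermatheca, and *nhr-48*, a relative of the vitamin D receptor, were not called in either comparison. For *nhr-6* the letters were far apart within groups, at 3.04, 1.77 and 1.38 CPM in starved EV libraries, against 2.73, 1.12 and 0.512 CPM in control EV libraries. Over all role lists together, 5 of 25 members were called higher in starved EV and 8 lower in starved *daf-2* RNAi, while of the 138 members in no role list 23 were called higher and 27 lower. Beside all counts of this paragraph stand 11.5% of all tested genes called higher and 11.9% lower.

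Most called members have no established role. The falls on *daf-2* RNAi kept without any single library included *nhr-156* (chromosome V, 3906106 to 3908452), the one member called in both RNAi comparisons. It was at 2.01, 2.07 and 1.48 CPM in starved *daf-2* RNAi libraries, against 5.13, 5.26 and 6.43 CPM in starved EV libraries. It was at 1.8, 2.47 and 2.54 CPM in control *daf-2* RNAi libraries, against 4.21, 4.88 and 4.7 CPM in control EV libraries. Both RNAi groups were below both EV groups in every library. The differences were -1.21 ± 0.16 in starved animals (adjusted p = 0.000954) and -0.78 ± 0.16 in control animals (adjusted p = 0.0333). The call in control animals was lost without any of the 6 control libraries, A of starved *daf-2* RNAi or B of starved EV, with an adjusted p of up to 0.16.

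A further gene of chromosome X, *nhr-3* (14558504 to 14561432), was at 11.5, 7.55 and 11.7 CPM in starved *daf-2* RNAi libraries, against 27.1, 18.9 and 25 CPM in starved EV libraries, and at 4.59, 6.86 and 8.22 CPM in control *daf-2* RNAi libraries, against 10.7, 13.6 and 13.1 CPM in control EV libraries. It was lower with the RNAi label in both backgrounds without overlap, and higher in starved EV than in control EV. The differences were -1.14 ± 0.22 for starved *daf-2* RNAi against starved EV (adjusted p = 0.00704), -0.86 ± 0.22 for control *daf-2* RNAi against control EV (adjusted p = 0.102; 0.0233 with the block) and 0.86 ± 0.22 for starved EV against control EV (adjusted p = 0.0227; lost without A or C of starved EV or any control EV library, at up to 0.0785).

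The X-linked *nhr-137* was at 4.91, 4.98 and 4.08 CPM in starved *daf-2* RNAi libraries, against 11, 7.49 and 9.93 CPM in starved EV libraries, and at 4.01, 5.11 and 4.35 CPM in control *daf-2* RNAi libraries, against 8.13, 9.39 and 6.74 CPM in control EV libraries. As with *nhr-156*, every RNAi library was below every EV library. It was called in starved animals (-0.88 ± 0.18, adjusted p = 0.00859) and not in control animals (-0.72 ± 0.18, adjusted p = 0.0793; 0.0261 with the block). It was not called for arrest length on EV (0.20 ± 0.18, adjusted p = 0.416).

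Among the lowest members were some of the largest called differences. For *nhr-270*, with 1 to 45 reads per library, levels were 0.865, 0.332 and 0.304 CPM in starved *daf-2* RNAi libraries, against 1.54, 1.26 and 1.67 CPM in starved EV libraries, and 0.347, 0.0414 and 0.14 CPM in control EV libraries. The differences were 1.09 ± 0.18 for starved EV against control EV (adjusted p = 0.00227) and -0.75 ± 0.18 for starved *daf-2* RNAi against starved EV (adjusted p = 0.0182; lost without B of starved *daf-2* RNAi or A or C of starved EV, at up to 0.0682). Similarly *nhr-63*, with 5 to 58 reads, was at 2.63, 1.65 and 2.16 CPM in starved EV libraries, against 0.644, 0.207 and 0.791 CPM in control EV libraries (1.03 ± 0.20, adjusted p = 0.00697). Neither gene overlapped between these groups, and both fits rest on few reads. Of the *nhr-270* values given here, only those of starved EV reached 1 CPM. Beyond starved EV, *nhr-63* reached it only in A and C of starved *daf-2* RNAi. The requirement of 1 CPM in 3 libraries thus leaned on the group where these genes were high, and their differences are not independent of it.

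The other calls of starved EV against control EV ran from 0.49 (*nhr-56* and *nhr-140*) to 0.94 (*nhr-58*), with *nhr-11* at 0.88, *nhr-44* at 0.82, *nhr-98* at 0.77, *nhr-50* and *nhr-117* at 0.71 and *nhr-183* at 0.67. The other calls of starved *daf-2* RNAi against starved EV ran from -0.95 (*nhr-44*) to -0.52 (*nhr-131*), with *nhr-94* at -0.85, *nhr-97* at -0.82, the excretory canal regulator *nhr-31* at -0.77 and *nhr-58* at -0.75. Of these, *nhr-97* and *nhr-31* were well expressed: *nhr-97* was at 76.5, 65 and 100 CPM in starved *daf-2* RNAi libraries, against 142, 123 and 158 CPM in starved EV libraries, and *nhr-31* at 38.6, 26.5 and 28.3 CPM against 62.7, 50.1 and 47.5 CPM. Both were without overlap, and both calls were lost without B of starved *daf-2* RNAi or A of starved EV (adjusted p up to 0.0845 and 0.0638), that of *nhr-97* also without C of starved EV. In the first comparison *nhr-183* was kept without any single library and each of the others named here was lost without at least 1 (adjusted p up to 0.158). In the second the call of *nhr-44* was kept and the others were lost without at least 1 (up to 0.171).

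**Figure D4:**
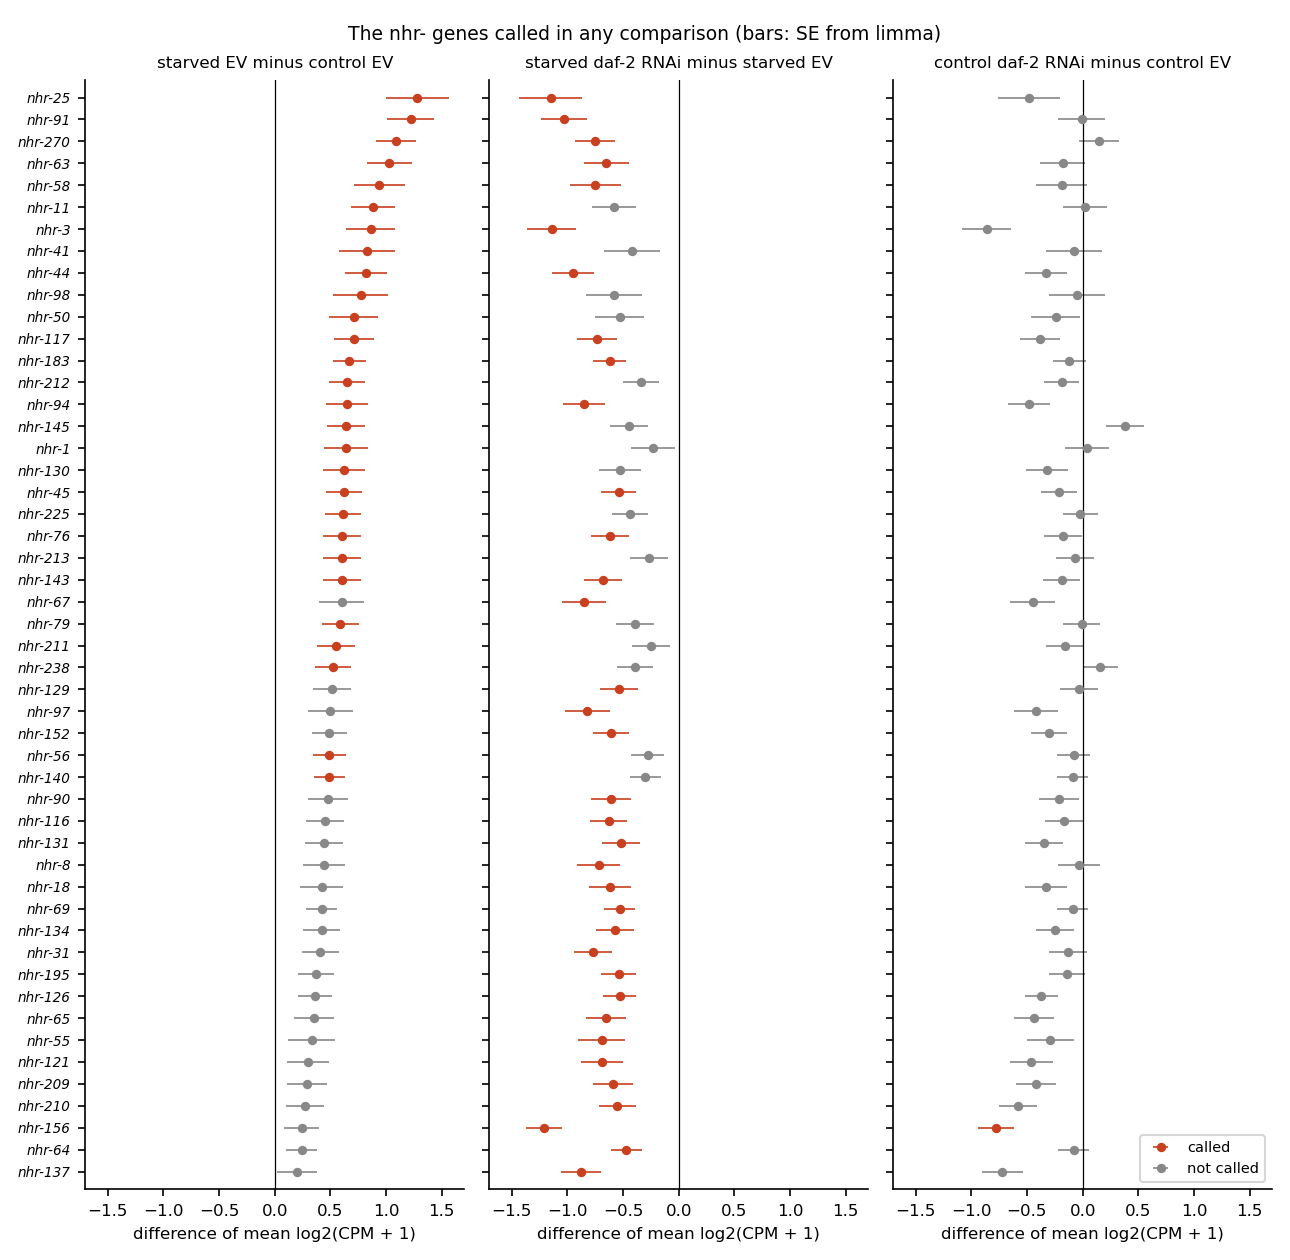
Difference of mean log2(CPM + 1) with its SE (horizontal) for each of the 50 nhr- genes called in any comparison (rows), in starved EV minus control EV, starved *daf-2* RNAi minus starved EV and control *daf-2* RNAi minus control EV. All 50 lie above 0 in the left panel and below 0 in the middle one, which share the starved EV libraries, and in the right panel 1 gene, *nhr-156*, was called.

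By chromosome, 5 of 16 X-linked members were called higher in starved EV (31.2%), against 19.1% of all tested X-linked genes, and 5 lower in starved *daf-2* RNAi (31.2%), against 21.5%. On chromosome V, 20 of 101 members were called higher (19.8%), against 14% of its genes, and 22 lower (21.8%), against 14.1%. On chromosomes I, II and III, 0 of 8, 0 of 9 and 0 of 5 members were called higher in starved EV, against 7.67, 10.5 and 8.24% of their genes, and 2, 0 and 1 were called lower in starved *daf-2* RNAi, against 8.62, 11 and 7.62%. On chromosome IV, 3 of 24 members were called higher (12.5%), against 10.9% of its genes, and 5 lower (20.8%), against 10.2%. These shares come from few genes on all chromosomes but V.

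Many receptor genes lie side by side: 70 of the 163 members stood in 22 runs of directly adjacent protein-coding genes, the longest with 7 members. In the run from *nhr-56* to *nhr-96* (WBcel235 chromosome V, 2219004 to 2235180), the 7 differences of starved EV against control EV were 0.15 to 0.49 with 1 called, and those of starved *daf-2* RNAi against starved EV were -0.62 to -0.21 with 3 called (*nhr-18*, *nhr-126* and *nhr-134*). In the run of 7 from *nhr-161* to *nhr-42* (6980587 to 7000651) they were 0.05 to 0.49 with 1 called and -0.46 to -0.01 with 0 called. In the run of 6 from *nhr-99* to *nhr-106* (474778 to 491432), *nhr-130*, *nhr-211* and *nhr-212* were called higher in starved EV. Its differences of starved *daf-2* RNAi against starved EV were -0.69 to 0.02 with 1 called lower (*nhr-55*). Of all tested genes, 11.5% were called higher in the first comparison and 11.9% lower in the second. Each call counted here in these runs was lost without at least 1 library, with an adjusted p of up to 0.155. Neighbours of one run are related in sequence and may share reads, so they do not count as separate observations.

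Nuclear receptor genes with other names and genes around DAF-12 were examined beside the members. The steroid receptor gene *daf-12* was at 25.2, 14.6 and 17.8 CPM in starved *daf-2* RNAi libraries, against 41.5, 22.6 and 23.3 CPM in starved EV libraries and 26.1, 21.1 and 13.4 CPM in control EV libraries. Its groups overlapped and it was not called (0.50 ± 0.27, adjusted p = 0.194, for starved EV against control EV, and -0.56 ± 0.27, adjusted p = 0.157, for starved *daf-2* RNAi against starved EV). Of 3 such genes measured, the zinc sensor gene *hizr-1* was called lower in starved *daf-2* RNAi (-0.69, adjusted p = 0.0446), beside 11.9% of all tested genes. The *hizr-1* call was kept in 3 of 12 fits that left out a library, with an adjusted p of up to 0.135 in the others.

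Of 8 genes for dafachronic acid, the steroid ligand of DAF-12, and for partners of the receptor, 2 were called higher in starved EV than in control EV (11.5% of all genes) and 2 lower in starved *daf-2* RNAi than in starved EV (11.9% of all genes). The dehydrogenase gene *dhs-16* was at 0.415, 0.207 and 0.521 CPM in starved *daf-2* RNAi libraries, against 1.72, 1.18 and 1.97 CPM in starved EV libraries and 0.347, 0.0827 and 0.14 CPM in control EV libraries. It was thus high in starved EV alone, with differences of 1.14 for starved EV against control EV (adjusted p = 0.00111) and -0.92 for starved *daf-2* RNAi against starved EV (adjusted p = 0.00527). Only starved EV libraries reached 1 CPM, so *dhs-16* met the requirement of 1 CPM in 3 libraries through the group where it was high. Its differences are not independent of that requirement. The oxygenase gene *daf-36*, which acts at the first step from cholesterol, was at 14.6, 16.3 and 18.1 CPM in starved *daf-2* RNAi libraries, against 26.4, 30.3 and 30.9 CPM in starved EV libraries (-0.80, adjusted p = 0.0121). The cholesterol transport gene *ncr-1* was called higher in starved EV (0.68, adjusted p = 0.0306; lost without A or C of starved EV or B or C of control EV, at up to 0.12). None of the 4 co-regulators of receptors, among them the mediator subunit gene *mdt-15*, was called in any comparison.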

How the data were processed

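RNA from 12 whole-animal libraries was prepared with a NEBNext Ultra kit, per the labels' protocols, which does not keep strand. Tools listed in the submitters' processing notes are Bowtie 1.1.2, HTSeq 0.12.4 and edgeR, with no role given; no build is given in the sources used here. The authors deposited 1 table of 12894 genes in CPM, treated as a signal, because its columns sum to 889133 to 1097908. In each column the values are whole multiples of 1 read (100% within 0.01 read), which gave 21150912 to 30037731 reads per library, so 1 read is worth 0.0345 to 0.0495 CPM. Of the sequence names, 12731 matched WBcel235 and 163 did not.

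Values were tested as log2(CPM + 1) with limma 3.58.1 (R 4.3.3; trended variance, 2-sided) in 1 fit of 4 groups without a block, over 12830 genes at 1 CPM or more in at least 3 libraries, with Benjamini-Hochberg adjustment within each comparison at 0.05. The test had been planned for CPM and was kept. Members and lists were chosen with earlier results of these data known. Named are called members, those of fixed role and pathway lists, those highest and lowest per kb of exon, and others of note, chosen after their values were seen. Scripts were tested on simulated data. Alternatives were edgeR 4.0.16 and DESeq2 1.42.0 on recovered reads, a pseudocount of 0.25, no filter, a mean of at least 5 CPM, quantile normalization, a replicate block and leaving out each library. Like the main fit, the fits that left out a library had no block. Spread shared by same-lettered libraries thus counted as random spread in them.

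Replicate letters pair libraries in the RNAi comparisons by the data, not by the labels: deviations of same-lettered libraries correlated at 0.821, 0.596 and 0.593 in starved and 0.695, 0.55 and 0.541 in control animals (A, B and C). Across arrest lengths the deviations correlated for A and C (0.645 and 0.659 on EV, 0.487 and 0.579 on *daf-2* RNAi). For B they did not (0.0848 and -0.0952), so the letters paired only in part. Replicates correlated at 0.972 to 0.994 and differed by more than counting noise.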

Additional observations from a re-analysis of the deposited data

Results flagged for a closer look

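One member, *nhr-145*, stood out because its arrest difference had opposite signs, without overlap, on both foods. It was at 2.25, 2.49 and 2.21 CPM in starved *daf-2* RNAi libraries, against 2.62, 2.97 and 2.8 CPM in control *daf-2* RNAi libraries, a log2 difference of -0.20. On empty vector (EV) it was at 3.99, 3.49 and 3.16 CPM in starved libraries, against 1.39, 1.82 and 2.7 CPM in control libraries, a difference of 0.64. The interaction was -0.83 ± 0.24 (SE; unadjusted p = 0.0047 and adjusted p = 0.488 by limma), so it did not pass the threshold over all genes.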

How the results depend on the processing

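None of the 50 called members had a called difference that changed sign under the alternatives run. In starved EV against control EV, the 28 calls numbered 7 of the 71 members with a mean of at least 5 CPM, 9 with quantile normalization and 7 to 32 without 1 library. The shares of all genes called in these settings were 15.1, 11.6 and 5.67 to 20.4%. In starved *daf-2* RNAi against starved EV, the 35 calls numbered 15 of those 71, 15 with quantile normalization and 6 to 39 without 1 library. Of all genes, 15, 14.2 and 5.82 to 16.7% were called there. In control *daf-2* RNAi against control EV, the 1 call numbered 0 at a mean of at least 5 CPM, 0 with quantile normalization, 4 with DESeq2 and 0 to 1 without 1 library. Of all genes, 1.41, 1.22, 2.99 and 0.468 to 1.4% were called there. In starved *daf-2* RNAi against control *daf-2* RNAi, where limma made 0 calls, DESeq2 made 1 (2.9% of all genes called). The filter leaves fewer genes tested, and for the other settings the cause was not tested. Of the 28 calls, 5 were kept with quantile normalization, 21 with edgeR and 27 with DESeq2, and of the 35 calls 12, 23 and 31.

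With the replicate letter as a block, 68 members (64 higher and 4 lower) were called in starved EV against control EV (49.7% of all genes), 77 in starved *daf-2* RNAi against starved EV (47.9%), 4 in control *daf-2* RNAi against control EV (5.81%) and 2 (*nhr-25* and *nhr-232*) in starved against control *daf-2* RNAi (3.75%). Across arrest lengths the letters pair the libraries only in part. The correlation of same-lettered deviations (A, B, C) was 0.645, 0.0848 and 0.659 for the EV groups. For the *daf-2* RNAi groups it was 0.487, -0.0952 and 0.579. The B libraries did not deviate together, so the blocked counts there are given for information. Letter effects of the block are shared by all 12 libraries, so the blocked RNAi counts carry this limit too.

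Precision is limited by 3 libraries per group, by the low levels of most members, of which 92 average under 5 CPM, and by the dependence of the calls on single libraries. Counts without strand, overlapping genes and related neighbours further limit single values.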
